A study of Mus musculus with 6 samples.

Results

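In the deposited gene table of the mouse embryonic cortex, 1197 of 59484 features carry no gene symbol, lie wholly inside the span of a named gene and are expressed, as chosen by their mean level over 6 libraries. Much of the transcription of mammalian chromosomes runs outside annotated exons. Introns and the ends of genes hold antisense and long non-coding RNAs, processed pseudogenes copied from the mRNA of other genes, copies of mitochondrial DNA, and alternative last exons that annotation does not always list. Sam68 and SLM2 are paralogous RNA-binding proteins of the STAR family, which bind A/U-rich motifs and act on alternative splicing, and Sam68 is also known to act on the use of intronic polyadenylation sites. Each unnamed feature was compared with the named gene that holds it, here called the host, between wild-type and double-knockout cortex.

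Cortices at embryonic day 18.5 gave the polyA+ RNA of 3 wild-type embryos and 3 Sam68:Slm2 double-knockout (dKO) embryos. The mice were C57BL/6 and the libraries were made with the TruSeq Stranded mRNA kit. Both deletions are constitutive and present in every cell of the embryo, so direct effects in the cortex and effects from other tissues cannot be told apart. The study describes double knockouts as born to *Slm2* null parents heterozygous for *Sam68*, a cross that gives no wild-type littermates. Sex, litter and pooling of the embryos are not given in the labels.

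The table lists 59484 features, of which 35979 carry no gene symbol. Of the unnamed features, 14854 lie wholly inside the span of at least 1 named feature, and 8391 of these were at 0 in all 6 libraries. The members were selected on measured values, namely a mean of at least 10 normalized counts (read counts divided by a size factor of the library) over the 6 libraries, which 1216 features reached. Leaving out the 19 that lie within 10 Mb of the targeted genes gave 1197 members in 960 hosts. A single named span holds 1152 of them, and for the other 45 the smallest span was taken as the host. The host itself had a mean of at least 10 for 1144 members, and for 53 it did not, so that no ratio to the host was fitted for these. In the wild type 56 members had a mean under 10, and in the dKO 104 did. These passed the rule only through the other genotype, so they had to differ in 1 direction, and 1037 members had a mean of at least 10 in both genotypes. The 3 features closest to the threshold from below, inside *Nectin1*, *Spg11* and the protocadherin cluster, had means of 9.98, 9.98 and 9.99. The 3 closest from above, inside *Zfp652*, *Cc2d1b* and *Ngfrap1*, had means of 10.01, 10.01 and 10.05.

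The targeted genes were read first in each library. *Khdrbs1*, which encodes Sam68, had 8231, 8436 and 7974 normalized counts in the wild type and 114, 197 and 146 in the dKO. *Khdrbs3*, which encodes SLM2, had 13543, 15215 and 12764 in the wild type and 7059.5, 6349.7 and 6547 in the dKO. Every dKO library was below every wild-type library for both genes. The summed level of 4 cortical markers (*Emx1*, *Neurod6*, *Tbr1* and *Bcl11b*) was 62003 ± 12182 normalized counts in the wild type and 73261 ± 13346 in the dKO (SD, n = 3 embryos each; exact permutation p = 0.2), with *Neurod6* the most abundant. Markers of the choroid plexus summed to 33.3 ± 36.5 and 21.5 ± 15.4, with *Clic6* the most abundant and *Kcne2* at 0 in wild-type 2 and dKO 3. Those of the midbrain or hindbrain summed to 11.7 ± 3.36 and 12.9 ± 3.73, with *Hoxa2* at 0 in all 6 libraries. The 3 meningeal markers summed to 275, 127 and 411 in the wild type and 108, 151 and 138 in the dKO, with *Col1a1* the most abundant (exact permutation p = 0.3). The 4 markers of the ganglionic eminence summed to 5354 ± 818 and 5062 ± 992, and the 4 erythroid markers to 53430.4 ± 7578 and 59738 ± 11095. Of the 23 markers, 16 were high enough to be fitted, and none of these passed an adjusted *P*-value of 0.05 from limma. Before adjustment 3 were under 0.05, namely *Emx1*, *Bcl11b* and *Dcn*. *Emx1* had 1127, 1329 and 1125 normalized counts in the wild type and 1706, 1734 and 1739.8 in the dKO, without overlap (log2 fold change 0.54, limma adjusted p = 0.090). *Bcl11b* had a log2 fold change of 0.31 and *Dcn*, a meningeal marker, one of -1.59. The part of these cell types in the results below was not tested. In bulk tissue, fewer cells of a type and less RNA per cell cannot be told apart.

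Wild-type 1 and dKO 1 stood apart from the other libraries. Over 13978 genes, the deviation of a library from the mean of all libraries had a Spearman correlation with transcript length of 0.263 in wild-type 1 and 0.327 in dKO 1, while the other 4 libraries lay between -0.229 and -0.121. The points of these correlations are genes of the same libraries and are given as a description. Both genotypes hold 1 such library, and the calls below are given with and without the 2.

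The hosts range from single genes to merged spans, and the members share features that the rule did not use. The median length of a member was 2110.0 bases, from 20 to 100743 bases, and the median level was 28.6 normalized counts (quartiles 15.7 and 76.3). Most hosts, 811 of 960, hold 1 member. Read in the direction of the host, the median member lay 64.4% of the way along it (n = 1168 members with a host of known strand). From the start of the host in steps of 20% of its length, there were 198, 154, 184, 228 and 404 members, so the stretch nearest the end holds the most. In the mouse annotation of GENCODE release M21, 566 members had no base on an exon of the host and 272 had over 50% of their bases on host exons. Another 246 had up to 50%. For 113 no annotated gene of the host's name lay over the member, although it is inside the host's span in the table. Some of these hosts can be listed in the annotation under another name. Of all members, 174 lay on the last exon of an annotated host transcript. An annotated gene of another name than the host's covered at least 50% of the bases of 349 members, and is here called a gene of their own. It can be much longer than the member. These were 141 long non-coding RNAs, 86 loci to be experimentally tested, 72 protein-coding genes and 50 pseudogenes, and 848 members had none. Names were matched as written, so a host that the annotation lists under another name can be among them. For 45 members, 40 of them with a protein-coding gene, this gene is also a named feature of the table. Where a strand could be read from the annotation, 227 of the annotated genes ran opposite to the host and 111 in the same direction. The strand setting of the counting is not given, so the reads of a member, of its host and of an antisense transcript at the same place cannot be told apart.

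As a group, the members held 1.63%, 1.72% and 1.66% of the reads in the wild type and 1.56%, 1.82% and 1.55% in the dKO (exact permutation p = 0.8). The dKO libraries included both the highest and the lowest share. The 5 members in a stretch of mitochondrial gene copies inside *Lmbrd1* held 0.974%, 1.08% and 1.03% in the wild type and 0.929%, 1.17% and 0.927% in the dKO. Without them, the members held 0.657%, 0.640% and 0.636% in the wild type and 0.629%, 0.648% and 0.622% in the dKO (exact permutation p = 0.3). The genotypes overlapped in each of these shares.

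The median log2 fold change of the members (dKO over wild type) was -0.06, where all 18970 features fitted had 0.00, unnamed features outside named spans -0.06 and named features nested in named spans 0.02. It includes members that reached the mean through only 1 genotype. For the 1037 with a mean of at least 10 in both genotypes it was -0.035, and for the 408 members with a mean of at least 50 it was 0.005, so the direction of the median rested on the low members. The median difference between member and host was -0.10 on the log2 scale over 1144 pairs, -0.02 over 494 named nested features, -0.071 over 991 pairs whose member had a mean of at least 10 in both genotypes and -0.01 over 384 pairs with a member mean of at least 50. Both medians moved with single libraries left out. The level went to -0.029 without wild-type replicate 1, -0.107 without wild-type replicate 3, -0.10 without dKO replicate 1 and -0.022 without dKO replicate 3, and the difference to -0.13 without wild-type replicate 3 and -0.061 without dKO replicate 3. In the limma fit over all features, the adjusted *P*-value of 4 members was under 0.05, against 0.1% of all features. Among the 1037 members with a mean of at least 10 in both genotypes there were 3, against 0.0876% of all features filtered in the same way, without that of *Zdhhc6*, whose direction was fixed by its selection. The number over all members was 1, the same member of *Fam169a*, without wild-type replicate 1, without dKO replicate 2 or without dKO replicate 3, and 2 without wild-type replicate 3. It was 15 with DESeq2 on the recovered reads, 6 of them higher in the dKO, against 202 of the 18970 features. With limma run with neither trend nor robust options it was 2, against 7 of the features. Before adjustment, 123 members or 10.3% were under 0.05, against 11.5% of all features. With neither trend nor robust options there were 196 or 16.4%, against 9.88% of all features. With both options kept, members also had the larger share in the fit that went down to a mean of 1 (11.4% against 10.3%). The same held without wild-type replicate 1 (8.35% against 8.1%), wild-type replicate 3 (8.52% against 7.35%) or dKO replicate 3 (7.27% against 6.43%). Their share was smaller with edgeR, DESeq2, the replicate block, TMM rescaling or other pseudocounts. It was also smaller without wild-type replicate 2, dKO replicate 1, dKO replicate 2, or both wild-type 1 and dKO 1. Which share was larger thus depended on the setting. Among the 1037 with a mean of at least 10 in both genotypes, 87 or 8.39% were under 0.05, against 11.0% of all features filtered in the same way, with 38 higher against 4.90% and 49 lower against 6.15%. Of the 123, 50 were higher in the dKO, against 4.92% of all features, and 73 were lower, against 6.58%. The genotypes did not overlap in 217 members or 18.1%, against 16.4% of all features. Of these, 90 were higher in the dKO, against 7.89%, and 127 were lower, against 8.48%. Among the 1037 they did not overlap in 160 or 15.4%, 69 higher and 91 lower, against 15.9% of all features filtered in the same way. Among the 56 members with a wild-type mean under 10, 12 of the 12 at an unadjusted *P*-value under 0.05 were higher, and among the 104 with a dKO mean under 10, 24 of 24 were lower, as their selection requires.

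The ratio of each member to its host was fitted over all 1656 nested pairs of the table. By this measure, the adjusted *P*-value of 4 members was under 0.05 in limma, against 0.242% of all pairs, and they were the same 4. Most of the 1656 pairs are those of the members themselves, and among the 494 named nested features 0 had an adjusted *P*-value under 0.05 in limma and 42 or 8.5% an unadjusted one. Of the 991 pairs whose member had a mean of at least 10 in both genotypes, it was under 0.05 in 3, against 0.203% of all pairs filtered in the same way, and the unadjusted one in 90 or 9.08%, against 8.78%, with 41 higher against 4.05% and 49 lower against 4.73%. The number over all members was 1 without dKO replicate 1, dKO replicate 2 or dKO replicate 3, and 2 without wild-type replicate 1. Before adjustment, 130 members or 11.4% were under 0.05, against 10.6% of all pairs. Of these, 56 were higher, against 4.59%, and 74 were lower, against 5.98%. The ratio did not overlap between the genotypes in 214 of 1144 members, against 17.8% of all pairs, with 82 higher against 6.64% and 132 lower against 11.1%. Of the 1144 members, 55 had a wild-type mean under 10 and 98 a dKO mean under 10. The direction of their level was fixed by selection, and the 214 were not counted without them. Of the 918 hosts that were fitted, 0 had an adjusted *P*-value under 0.05 and 110 or 12.0% an unadjusted one, against 11.5% of all features, with a median log2 fold change of 0.03. The log2 fold changes of member and host had a Pearson correlation of 0.07 and a Spearman correlation of 0.07 over 1144 pairs, which share their 6 libraries and, where they overlap, possibly reads. Without wild-type 1 and dKO 1 no member had an adjusted *P*-value under 0.05, on its level or on its ratio, and 5 features of the whole table did.

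In the main limma fit, the only member that fell past the threshold lies at the end of *Fam169a*, a gene for a soluble lamin-associated protein. GSMG0010990 (chr13:97125869-97128859) is 2991 bases long, has its midpoint 96.5% of the way along the host, and has 79.0% of its bases on host exons, on the last exon of both annotated transcripts. It had 282, 211 and 199 normalized counts in the wild type and 39.0, 34.5 and 42.9 in the dKO. The lowest wild-type library was well above the highest dKO library, and the 3 dKO libraries lay close together. *Fam169a* itself had 933, 777 and 885 in the wild type and 879, 681 and 841 in the dKO, which overlap. The member therefore amounted to 30.3%, 27.1% and 22.5% of the host's level in the wild type and to 4.44%, 5.07% and 5.10% in the dKO. Its log2 fold change was -2.53 (standard error, SE, 0.22, limma adjusted p = 0.00134), the log2 ratio to the host fell by 2.41 (SE 0.21, limma adjusted p = 0.00421), and the host had a log2 fold change of -0.12 (adjusted p = 0.734). The call on the level ended without wild-type 1 and dKO 1, with a log2 fold change of -2.38 (limma adjusted p = 0.0554), and so did that on the ratio (-2.25, adjusted p = 0.237 from limma).

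Other features in and beside *Fam169a* did not pass the test. A second member inside *Fam169a*, GSMG0070567 (chr13:97098237-97099341), had 225, 195 and 219 normalized counts in the wild type and 237, 333 and 306 in the dKO. Every dKO library was above every wild-type library, with a log2 fold change of 0.44 (SE 0.16, limma adjusted p = 0.385). A further feature of the table, GSMG0070258, has the same coordinates, with 7.61, 10.7 and 9.64 in the wild type and 0, 10.5 and 0 in the dKO. Its mean of 6.41 was too low for the fit. *Nsa2*, a ribosome biogenesis gene whose span overlaps the last bases of *Fam169a* (chr13:97129427-97137926), had 4667, 5380.2 and 5597 in the wild type and 4492, 4258 and 4939.8 in the dKO. Its log2 fold change was -0.19 (limma adjusted p = 0.466).

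The 3 members that were higher in the dKO past the threshold in the main limma fit lie in introns of their hosts. They have no base on an annotated exon of the host and no annotated gene of their own. Exons of other genes were not measured. DESeq2 on the recovered reads called 6 higher, among them the member of *Pcdh10*, which lies on host exons. Of the 3 in limma, 1 became a member only through the dKO. The first lies 92.0% of the way along *Rpap2*, which encodes a phosphatase of the C-terminal domain of RNA polymerase II. GSMG0030865 (chr5:107656008-107657435) had 17.1, 20.4 and 28.1 normalized counts in the wild type and 87.1, 95.2 and 128 in the dKO. All dKO libraries were above all wild-type libraries. The host had 537, 652 and 596 in the wild type and 595, 528 and 516 in the dKO. The member went from 3.67% to 19.1% of the host's level on average, while the host overlapped between the genotypes. Its log2 fold change was 2.20 (SE 0.30, limma adjusted p = 0.0275) and the log2 ratio to the host 2.32 (SE 0.30, limma adjusted p = 0.0193). Leaving out 1 library kept the log2 fold change between 2.04 and 2.38. Its call on the level was lost with wild-type replicate 1, wild-type replicate 2, dKO replicate 2 or dKO replicate 3 left out. The adjusted *P*-values ran up to 0.222 in limma. At the same log2 fold change, it was also lost with the replicate block (limma adjusted p = 0.0597) and with neither trend nor robust options (0.098). With 1 library left out, the call on its ratio held only without wild-type replicate 3, with limma adjusted *P*-values up to 0.14 in the others. With the replicate block the ratio had a limma adjusted p = 0.0866.

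A feature beside it had the same pattern. GSMG0030866 (chr5:107659097-107688015) starts inside *Rpap2*, which ends at 107661853, and runs past its end, so it is not a member. It had 12.4, 14.0 and 21.9 normalized counts in the wild type and 87.1, 101 and 73.1 in the dKO, again with no overlap. Its log2 fold change was 2.40 (SE 0.33, limma adjusted p = 0.0275). Whether the 2 features belong to 1 transcript cannot be read from counts. *Glmn*, the gene on the other side of *Rpap2* (chr5:107548967-107597889), had a log2 fold change of 0.22 (limma adjusted p = 0.575).

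The second lies 93.9% of the way along *Ralyl*, a gene for a neuronal RNA-binding protein of the RALY family. GSMG0024102 (chr3:14137337-14140278) had 13.3, 15.0 and 21.0 normalized counts in the wild type and 61.7, 94.1 and 76.6 in the dKO. All dKO libraries were above all wild-type libraries. *Ralyl* had 1884, 1786 and 2119 in the wild type and 1799, 1714 and 1615 in the dKO. The member was thus 0.847% of the host's level in the wild type and 4.55% in the dKO on average. Its log2 fold change was 2.17 (SE 0.33, limma adjusted p = 0.0439), with a log2 ratio to the host of 2.34 (SE 0.29, limma adjusted p = 0.0193). Leaving out 1 library kept the log2 fold change between 2.02 and 2.35. The 5 other unnamed features wholly inside *Ralyl* had means from 0.174 to 7.30 and are not members. With 1 library left out, whichever it was, the call on its level was lost, with limma adjusted *P*-values from 0.0568 to 0.26. At the same log2 fold change, it was also lost with the replicate block (limma adjusted p = 0.110) and with neither trend nor robust options (0.098). In the fits that left out 1 library, the call on its ratio held only without wild-type replicate 3, with limma adjusted *P*-values up to 0.14 in the others. With the replicate block the ratio had a limma adjusted p = 0.0959.

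The third lies in *Zdhhc6*, which encodes a palmitoyltransferase of the endoplasmic reticulum. GSMG0020538 (chr19:55299277-55300342) had 4.76, 6.44 and 4.38 normalized counts in the wild type and 47.2, 40.8 and 55.7 in the dKO. In the wild type it rested on 5, 6 and 5 reads, so it became a member only through the dKO, and its direction was fixed by that. Its values are given as a description and its *P*-values are not read as a test. *Zdhhc6* had 902, 1107 and 1071 in the wild type and 947, 991 and 943 in the dKO, which overlap. The member's log2 fold change was 2.98 (SE 0.42), between 2.87 and 3.12 after leaving out 1 library, and its log2 ratio to the host 3.07 (SE 0.33). Its adjusted *P*-values by limma did not stay under 0.05 in all of these fits, on the level or on the ratio. The neighbouring *Acsl5*, a fatty acid ligase gene whose span overlaps the end of *Zdhhc6* (chr19:55253368-55297720), had a log2 fold change of -0.21 (limma adjusted p = 0.473).

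Beyond these 4, members were described by the ratio to the host alone, and a lack of overlap between the genotypes was part of how they were chosen. Among members with a mean of at least 50 and a host mean of at least 10, the ratio did not overlap in 78 of 384 or 20.3%. Of these, 33 were higher and 45 lower. Over all pairs, which were not filtered at a mean of 50, it did not overlap in 17.8%, with 6.64% higher and 11.1% lower. The 8 with the most positive and the 8 with the most negative log2 ratio include 1 passing member each, those of *Rpap2* and *Fam169a*. The other 14 did not pass, with adjusted *P*-values of the ratio from 0.0686 to 0.437 from limma. In 6 of the 8 positive ones the log2 fold change of the host was larger in size than that of the member, and in 0 of the 8 negative ones.

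Among the positive ratios, the member inside *Pcdh10*, a protocadherin gene of cell adhesion, is the one whose own level differed most after *Rpap2*. GSMG0024267 (chr3:45399863-45401999) lies wholly on host exons, on the last exon of 1 of the 5 annotated transcripts and 40.1% of the way along the span. It had 149, 243 and 148 normalized counts in the wild type and 373, 332 and 414 in the dKO. The dKO libraries were all higher, and wild-type 2 was the closest to them. *Pcdh10* had 7495, 7358 and 7419.5 in the wild type and 5844, 5646 and 6780.5 in the dKO, so the host was lower in every dKO library. The member's log2 fold change was 1.08 (SE 0.20, limma adjusted p = 0.121) and its log2 ratio to the host 1.37 (SE 0.23, limma adjusted p = 0.0804). Without wild-type replicate 2 both passed the threshold, at 0.0252 and 0.0284. On the recovered reads, the level of GSMG0024267 had an adjusted *P*-value of 0.138 with edgeR and 0.000587 with DESeq2.

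The member in *Tatdn1*, a putative deoxyribonuclease gene, is annotated as *Rnf139*, a ubiquitin ligase gene that runs in the opposite direction. GSMG0043743 (chr15:58900137-58907057) had 47.6, 60.2 and 47.3 normalized counts in the wild type and 106, 81.6 and 56.8 in the dKO, which overlap. *Tatdn1*, whose span reaches into the left-out 10 Mb around *Khdrbs3*, had 335, 359 and 379 in the wild type and 211, 206 and 188 in the dKO. The larger part of the ratio came from the host, with a log2 ratio of 1.43 (SE 0.27, limma adjusted p = 0.113) and a log2 fold change of the host of -0.82 (adjusted p = 0.0756). The member in *Il12rb2*, an interleukin receptor gene, exceeded its host in every library. GSMG0032024 (chr6:67295183-67297736) had 178, 124 and 121 in the wild type and 236, 213 and 183 in the dKO, while *Il12rb2* had 17.3 ± 7.27 and 7.51 ± 2.89 (SD, n = 3 each). Its log2 ratio was 1.69 (SE 0.47, limma adjusted p = 0.315).

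The other positive ratios belong to hosts with low counts. The member in *Slc24a2*, a potassium-dependent sodium and calcium exchanger gene, had 71.3, 62.3 and 59.6 normalized counts in the wild type and 79.9, 89.9 and 73.1 in the dKO. Its host had 62.2 ± 9.41 and 39.6 ± 5.24 (SD, n = 3 each), which gave a log2 ratio of 0.96 (SE 0.24, limma adjusted p = 0.289). The member in a span of 3 symbols that begins with *Vmn2r84*, a vomeronasal receptor gene, had 544, 618 and 570 in the wild type and 762, 768 and 729.5 in the dKO. In both, every dKO library was above every wild-type library. The log2 fold change of the *Vmn2r84* member was 0.38 (SE 0.10, limma adjusted p = 0.277) and its log2 ratio 0.91 (SE 0.17, limma adjusted p = 0.124). The last 2, in *Lrp1b* and *Adgrg6*, are pseudogenes and are described with the other copies.

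Among the negative ratios, the member in *Fxr1*, which encodes an RNA-binding protein of the fragile X family, came closest to the threshold. GSMG0025299 (chr3:34054335-34055429) had 131, 129 and 147 normalized counts in the wild type and 53.5, 57.5 and 38.3 in the dKO. The genotypes did not overlap, and dKO 3 was the lowest library. *Fxr1* had 1865, 1965 and 2114 in the wild type and 2102, 1987 and 2117 in the dKO, which overlap. The log2 fold change of the member was -1.45 (SE 0.24, limma adjusted p = 0.0656) and its log2 ratio to the host -1.51 (SE 0.24, limma adjusted p = 0.0686). The ratio passed with a pseudocount of 5 (limma adjusted p = 0.0407). On the recovered reads, the level of GSMG0025299 had an adjusted *P*-value of 0.0650 with edgeR and 0.000142 with DESeq2. The member has no base on a host exon and is annotated as *Gm43667*, a locus to be experimentally tested on the opposite strand.

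A stretch of *Gm43667* is shown because Sam68 and SLM2 bind motifs that hold TAAA. In its transcript (GENCODE release M21, GRCm38) the letters TAAA occur 13 times on the transcribed strand, or 11.9 per kb, and the poly(A) signal letters AATAAA 3 times. Over the 85 transcripts of members to be experimentally tested the median was 6.37 TAAA per kb, and 5 of them, *Gm43667* included, had at least its density. The median was 5.07 over 127 long non-coding RNAs, 3.21 over 44 protein-coding genes and 2.11 over 39 pseudogenes. The GC content of *Gm43667* was 36.9%. The group medians were 44.5% for loci to be experimentally tested, 49.3% for long non-coding RNAs, 53.4% for protein-coding genes and 49.0% for pseudogenes. The TAAA densities were not adjusted for base composition, so a difference in density cannot be told apart from one in A/T content. A match of letters is a description and no binding site. The stretch below (chr3:34054339-34054518, minus strand, GRCm38, 5′ to 3′) was picked as the 180 bases of the transcript with the most bases in TAAA. It is therefore denser than the transcript as a whole. In it, capitals mark TAAA.
Gm43667: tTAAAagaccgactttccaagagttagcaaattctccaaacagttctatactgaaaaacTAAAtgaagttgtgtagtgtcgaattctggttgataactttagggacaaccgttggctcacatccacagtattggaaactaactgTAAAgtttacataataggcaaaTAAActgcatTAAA

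The other negative ratios were smaller and far from the threshold. The member in *Ptprs*, a receptor tyrosine phosphatase gene of the synapse, is GSMG0017695 (chr17:56430555-56432478), with 199.7, 265 and 188 normalized counts in the wild type and 158, 125 and 113 in the dKO. Its log2 ratio to the host was -0.78 (SE 0.22, limma adjusted p = 0.315). The member in the span of *Rps6*, a gene of the small ribosomal subunit, is GSMG0028021 (chr4:86848681-86851088), with 147, 163 and 132 in the wild type and 94.4, 71.1 and 88.1 in the dKO. It lies outside the annotated *Rps6* gene and had a log2 ratio of -1.04 (SE 0.24, limma adjusted p = 0.216). In both, every dKO library was below every wild-type library.

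The member in *Hmgn1*, a nucleosome-binding protein gene, is GSMG0016118 (chr16:96125319-96127022), with 66.6, 64.4 and 82.4 normalized counts in the wild type and 40.8, 58.6 and 32.5 in the dKO. Its log2 ratio was -0.96 (SE 0.32, limma adjusted p = 0.345). The member in *AI506816*, GSMG0030239 (chr5:23698296-23699582), had 63.7, 88.1 and 69.3 in the wild type and 43.6, 37.6 and 33.6 in the dKO. It has 80.9% of its bases on host exons. Its log2 ratio was -0.87 (SE 0.24, limma adjusted p = 0.314).

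The member in *Fbrsl1*, a gene related to *Auts2*, is annotated as *Gm26711*, a long non-coding RNA on the opposite strand. GSMG0029592 (chr5:110385834-110388073) had 60.9, 64.4 and 61.4 normalized counts in the wild type and 33.6, 52.3 and 40.6 in the dKO, and its log2 ratio was -0.83 (SE 0.27, limma adjusted p = 0.342). The member in *Ncaph2*, a condensin II subunit gene, is GSMG0014374 (chr15:89367476-89368935), with 47.6, 85.9 and 61.4 in the wild type and 29.0, 54.4 and 34.8 in the dKO. Its level overlapped between the genotypes although its ratio did not, with a log2 ratio of -0.79 (SE 0.31, limma adjusted p = 0.437).

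The members with the highest counts include copies of other genes. Inside *Lmbrd1*, a lysosomal cobalamin transport gene, 5 members lie between 24611527 and 24615972 on chromosome 1, in a stretch of mitochondrial gene copies outside the annotated gene. Nearly all their reads fell on 2 of them. GSMG0043411 (chr1:24613188-24614814) had 259547, 289272 and 270728 normalized counts in the wild type and 260709, 332236 and 245036 in the dKO. GSMG0043410 (chr1:24614879-24615568) had 80013, 87123 and 80467 in the wild type and 79160.2, 89604 and 92394 in the dKO. The host had 1121 ± 52.9 and 985 ± 63.4 (SD, n = 3 each), so these members exceeded it many times over. Their log2 fold changes were 0.02 (SE 0.11, limma adjusted p = 0.956) and 0.07 (SE 0.08, limma adjusted p = 0.735), with log2 ratios to the host of 0.21 (adjusted p = 0.616) and 0.26 (adjusted p = 0.529). Before adjustment, 2 of the 5 were under 0.05, both lower in the dKO, where 6.58% of all features were. GSMG0043413 had a log2 fold change of -0.57 (SE 0.14, limma adjusted p = 0.244) and passed with DESeq2 on the recovered reads, and GSMG0070249 had -0.34 (SE 0.09, limma adjusted p = 0.292). GSMG0043413 is annotated as *Gm10925*, which lies inside GSMG0043411, so GSMG0043413 and GSMG0043411 overlap. How reads were split between them is not known.

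The annotated genes of this place have near-identical copies on the mitochondrial genome. Of the 31-mers (stretches of 31 bases) of *Gm28439*, 100% occur in *mt-Nd4*, a subunit of complex I. Those of *Gm10925* occur to 100% in *mt-Atp6*, a subunit of ATP synthase, and those of *Gm28661* to 100% in *mt-Co2*, while *Gm29216* shares 97.2% with *mt-Co1*, both subunits of cytochrome c oxidase. The highest member, GSMG0043411, has no annotated gene matched to it as a whole, but *Gm10925* and *Gm28437*, whose 31-mers occur to 100% in *mt-Co3*, together cover 89.8% of it. On the mitochondrial genome itself, the largest stretch without a feature in the table runs from 6942 to 9202, or 2261 bases. It holds *mt-Co2* (7013 to 7696) and *mt-Atp6* (7927 to 8607) whole and *mt-Co3* (8607 to 9390) in part. Reads of these mitochondrial mRNAs and of the copy cannot be told apart. The 13 mitochondrial features that are in the table held 3.78%, 4.34% and 3.87% of the reads in the wild type and 3.46%, 4.34% and 3.45% in the dKO (exact permutation p = 0.5). In each genotype, the library with the most reads on these features also had the most on the copies.

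The stretch below is shown because it stands for the member with the second-highest mean. It is the start of *Gm28661* (chr1:24615386-24615565, minus strand, GRCm38, 5′ to 3′), and capitals mark bases in 31-mers shared with *mt-Co2*, here all 180 of them.
Gm28661: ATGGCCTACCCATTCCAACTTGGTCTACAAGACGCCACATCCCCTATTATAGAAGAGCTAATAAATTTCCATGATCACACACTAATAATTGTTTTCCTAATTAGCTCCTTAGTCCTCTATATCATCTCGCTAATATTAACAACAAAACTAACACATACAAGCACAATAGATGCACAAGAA

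*Gm10335*, inside *Adgrg6*, an adhesion receptor gene known from myelination, shares 92.9% of its 31-mers with *Rpl23a*, a gene of the large ribosomal subunit. The member, GSMG0066429 (chr10:14523059-14523593), had 14056 normalized counts, 15526 and 17567 in the wild type and 14727, 21259 and 20861 in the dKO. The host had 85.4 ± 14.4 and 53.4 ± 10.7 (SD, n = 3 each), and *Rpl23a* itself had 2278, 3014 and 2736 in the wild type and 2430.3, 3639 and 3613 in the dKO. Both the copy and *Rpl23a* were lowest in wild-type 1 and dKO 1 within their genotype. The log2 fold change of the member was 0.26 (SE 0.14, limma adjusted p = 0.508) and that of *Rpl23a* 0.26 (SE 0.16, limma adjusted p = 0.564). Its log2 ratio to *Adgrg6* was 0.93 (SE 0.19, limma adjusted p = 0.148), and it passed at 0.0232 without wild-type replicate 3. *Gm10132* inside *Enox1* shares 92.9% of its 31-mers with *Rpl23a* too and has 2 members at the same coordinates (chr14:77251773-77252331). One of them, GSMG0066427, had a mean of 7880.0 and the other, GSMG0066276, a mean of 449.

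A stretch of *Gm10335* is shown because it is the copy with the most counts among the pseudogenes of nuclear genes. In the 180 bases below (chr10:14523235-14523414, plus strand, GRCm38, 5′ to 3′), capitals mark the 179 bases that lie in 31-mers shared with *Rpl23a*.
Gm10335: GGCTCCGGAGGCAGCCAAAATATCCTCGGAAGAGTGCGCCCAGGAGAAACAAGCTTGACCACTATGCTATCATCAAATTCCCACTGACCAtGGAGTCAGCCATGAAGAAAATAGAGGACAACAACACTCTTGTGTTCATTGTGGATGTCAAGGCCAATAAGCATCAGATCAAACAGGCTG

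*Gm13461*, inside *Lrp1b*, a lipoprotein receptor gene, shares 70.7% of its 31-mers with *Ran*, the GTPase of nuclear transport. GSMG0067267 (chr2:41986616-41988867) had 2108, 2565 and 2174 normalized counts in the wild type and 2387, 2708 and 2756 in the dKO. Its host had 244 ± 58.4 and 144 ± 32.1 (SD, n = 3 each). The log2 fold change of the member was 0.20 (SE 0.10, limma adjusted p = 0.473), that of *Ran* was 0.16 (SE 0.09, limma adjusted p = 0.505), and the log2 ratio to *Lrp1b* was 0.96 (SE 0.23, limma adjusted p = 0.289). The difference of the ratio came mostly from *Lrp1b*, with a log2 fold change of -0.76 (adjusted p = 0.318).

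Over all 50 pseudogene members the median log2 fold change was 0.24, with 38 above 0, where all features fitted had 0.00. None had an adjusted *P*-value under 0.05 in the main limma fit of the level. DESeq2 on the recovered reads called GSMG0043413 (*Gm10925*), and limma without dKO replicate 1 called GSMG0070561 (*Rpl7a-ps5*). Of the 50, 42 share over 50% of their 31-mers with another gene. For 33 of these 42 the copied gene was in the fit, and 28 of the 33 members were above 0. They copy 28 different genes, of which 26 were above 0 as well, with a median log2 fold change of 0.17. Copies of ribosomal protein genes make up 14 of the pseudogenes, 13 of which were above 0. They copy 12 different genes, all of them above 0. The copies and the copied genes share their libraries and possibly reads, so these counts are a description. The median was -0.18 for long non-coding RNAs, -0.08 for loci to be experimentally tested, -0.02 for protein-coding genes and -0.06 for members without an annotated gene.

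The 2 other members with very high counts lie in the spans of *Pik3r2* and *Gnaq*. GSMG0037396 (chr8:70698958-70700615), in the 711910.0 bases of the *Pik3r2* span, is annotated as *Jund*, a gene of the AP-1 transcription factor. It had 9676 normalized counts, 9711 and 10970.2 in the wild type and 11598, 9822 and 9366 in the dKO. GSMG0065115 (chr19:16266463-16267636), in an intron of *Gnaq*, a G protein subunit gene, had 8084, 8305 and 8166 in the wild type and 8156, 9060.3 and 9151 in the dKO. Both overlapped between the genotypes. The *Jund* member had a log2 fold change of 0.02 (SE 0.10, limma adjusted p = 0.962) and the *Gnaq* member one of 0.10 (SE 0.08, limma adjusted p = 0.621). The latter has no annotated gene of its own, and its sequence was not searched for stretches shared with other genes. The *Gnaq* member had 288% of the level of *Gnaq* in the wild type and 293% in the dKO on average.

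The hosts with the most members are long or merged spans. The span that begins with *Pcdha1* carries 39 symbols of the clustered protocadherins, which give neurons their surface identity, and holds 17 members over 1147489 bases of chromosome 18. The lowest log2 fold change among them was -0.60 and the highest 0.33, with a median of -0.18, and before adjustment 1 was under 0.05, where 11.5% of all features were. The cluster itself had 78811 ± 6105 and 74710.05 ± 7108 normalized counts (SD, n = 3 each), with a log2 fold change of -0.08 (limma adjusted p = 0.753). *Pik3r2*, a regulatory subunit of PI3 kinase, holds 11, all of them outside the annotated gene and 9 of them protein-coding genes, with a lowest log2 fold change of -1.15, a highest of 0.12 and a median of -0.10. *Mbd5*, a gene of the methyl-CpG-binding domain family, holds 11 without any annotated gene, from -0.54 to 0.06 with a median of -0.10. *Il6ra*, an interleukin receptor gene, holds 8, all outside the annotated gene, from -0.49 to 1.15 with a median of 0.02. The next 4 hosts tie with 5 members each. In *Cbl*, a ubiquitin ligase gene, they ran from -0.45 to 0.38. In the span of 3 symbols that begins with *Gm21992* they ran from -0.23 to 0.58, in *Pde4c*, a phosphodiesterase gene, from -0.42 to 0.23, and in *Lmbrd1* from -0.57 to 0.07. Of these hosts, *Pde4c* was too low to be fitted, and no other had an adjusted *P*-value under 0.05 in limma.

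Among hosts that are splice targets of the STAR proteins, the 5 counted here (*Nrxn2*, *Nrxn3*, *Nlgn1*, *Kif21a* and *Kansl1l*) hold 8 members. Their median log2 fold change was 0.16, and before adjustment 0 were under 0.05, against 11.5% of all features, and 0 on the ratio, against 10.6% of all pairs. In *Nrxn2*, a presynaptic adhesion gene, GSMG0020016 (chr19:6530711-6532013) is annotated as *Gm14964*, a long non-coding RNA on the opposite strand, and has 57.3% of its bases on host exons. It had 65.6, 180.4 and 151 in the wild type and 149, 112 and 147 in the dKO, which overlap, with wild-type 1 the lowest. Its log2 fold change was 0.15 (SE 0.34, limma adjusted p = 0.883), and without wild-type 1 and dKO 1 it was -0.36.

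The other lists of hosts held no passing member in limma either. Synaptic adhesion and scaffold genes held 21 members in 15 hosts, with a median of 0.09 and 2 or 9.52% at an unadjusted *P*-value under 0.05, against 11.5% of all features. On the ratio to the host, 5 or 23.8% were under 0.05 before adjustment, against 10.6% of all pairs. Axon guidance genes held 4 in 3 hosts, with a median of -0.06 and 0 at that level, and 0 on the ratio. RNA-binding and splicing genes held 19 in 15 hosts, with a median of -0.21 and 1 or 5.26% at that level, and 0 on the ratio. This list does not hold *Ralyl* or *Fxr1*, whose members are described above. Ion channel and transmitter receptor genes held 16 in 13 hosts, with a median of -0.15 and 4 or 25% at that level, and 3 or 18.8% on the ratio. Transcription and chromatin genes held 23 in 14 hosts, with a median of 0.02 and 0 at that level, and 1 or 4.35% on the ratio. These medians compare with 0.00 for all features fitted, and with lists this small nothing is read from the shares.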

How the data were processed

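PolyA+ RNA of 6 cortices was sequenced, and reads were aligned with STAR 2.7.5a to mm10 per the submitters' processing notes. The authors deposited a signal for each feature of the FAST database, that is the read count over the library's size factor, which they credit to DESeq2. Of the values above 0, 100.0% in each library lay within 0.05 reads of a whole multiple of the value of 1 read, between 0.877 and 1.16, so reads were recovered (31837922 to 40896541 per library). The counting error of 10 reads is 31.6%, so low members are imprecise, and *P*-values measure only the spread between samples.

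Genotypes were compared with limma 3.58.1 (trend and robust, R 4.3.3) on the log2 of the normalized count plus 1. The level was fitted for the 18970 features whose mean reached 10, and the ratio of member to host over 1656 nested pairs, adjusted by Benjamini-Hochberg over all of them. Single sums were compared by an exact permutation test, whose smallest value with 3 against 3 is 0.1. The named members are those past an adjusted *P*-value of 0.05 on level or ratio, the 8 most positive and 8 most negative ratios without overlap between genotypes at a mean of at least 50, the 5 with the highest mean, those of the 5 hosts with the most members (with ties), and those with a mean of at least 50 in STAR splice targets. Other features were named after their values were seen. Host lists covered STAR splice targets, synaptic adhesion and scaffold, axon guidance, RNA-binding and splicing, ion channel and transmitter receptor, and transcription and chromatin genes. The members and lists were chosen with earlier results of these data known.

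Annotation and transcript sequences came from GENCODE release M21 (GRCm38, which is mm10). Of 22403 symbols matched, 22354 overlap the gene of that name. Alternatives were pseudocounts of 0.1 and 5, TMM rescaling, limma without trend and robust, edgeR 4.0.16 and DESeq2 1.42.0 on the recovered reads, a fit over a mean of at least 1, another choice of host, members with a mean of at least 50, the replicate number as a block and each library left out. Added after seeing the data were the fit without wild-type 1 and dKO 1, the members without the mitochondrial copies and those with a mean of at least 10 in both genotypes. Python 3.11.15 with numpy 2.4.6, pandas 2.3.3 and scipy 1.17.1 was used for the rest. Splicing was not analysed. A few single genes are not reported, and the lists of hosts and markers were counted without them after the values had been seen.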

Additional observations from a re-analysis of the deposited data

How the results depend on the processing

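The 4 calls on the level include that of the *Zdhhc6* member, which is not read as a test because selection fixed its direction. The same holds for the 4 on the ratio, so 3 calls stand as tests in each. The same 4 members were called on the level by edgeR, TMM rescaling, a pseudocount of 5, a fit over a mean of at least 1 and without the mitochondrial copies. With a pseudocount of 0.1 there were 3, without the *Ralyl* member (adjusted *P*-value 0.0503). DESeq2 on the recovered reads called 15 members, the same 4 among them, against 202 of all features. Of the 15, 6 were higher in the dKO and the others lower. The count was 2 with a mean of at least 50, 2 without the trend and robust options, 1 with the replicate block (the *Fam169a* member), between 1 and 5 with single libraries left out, and 0 without wild-type 1 and dKO 1. The 4 calls on the ratio became 6 with a pseudocount of 5, 6 without the trend and robust options, 2 with a mean of at least 50, 0 with the replicate block, between 1 and 5 with single libraries left out, and 0 without wild-type 1 and dKO 1. The cause was not tested, although fewer members or samples remain in the settings that leave some out. The 123 members at an unadjusted *P*-value under 0.05 (10.3%, against 11.5% of all features) became 57 of 408 (14%, against 12.0% of features at that mean) with a mean of at least 50, 87 of 1037 (8.39%, against 11.0%) with a mean of at least 10 in both genotypes and 196 (16.4%, against 9.88%) without the trend and robust options. The median log2 fold change of -0.060 turned to 0.005 with a mean of at least 50 and was -0.035 with a mean of at least 10 in both genotypes, and the median difference to the host went from -0.098 to -0.006 and -0.071.

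The replicate numbers share only a number. The correlations of same-numbered wild-type and dKO libraries were 0.098, -0.228 and -0.079, and the block left the ratio of the *Fam169a* member at an adjusted *P*-value of 0.0866.

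Of 644 alternative values of 46 results on named members, 575 were the same, 46 were weaker, 4 stronger, 1 moved and 18 reversed, and the cause was not tested. Values from edgeR and DESeq2 were labelled by fold change alone. All reversed ones were far from the threshold. With single libraries left out, the level of the *Nrxn2* member ran from -0.29 to 0.43 and its ratio from -0.45 to 0.44, and this ratio was -0.023 with edgeR and -0.025 with DESeq2. The *Jund* member ran from -0.075 to 0.079 in level and from -0.12 to 0.042 in ratio, GSMG0043411 in *Lmbrd1* from -0.11 to 0.11 in level and the *Gnaq* member from -0.082 to 0.16 in ratio. Without wild-type 1 and dKO 1, the *Nrxn2* member had -0.36 in level and -0.49 in ratio and the *Jund* member -0.11 in level.

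Groups of 3 limit every test here, as do unknown strand and multimapping settings of the counting and hosts whose spans merge several genes.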
